A study of Mus musculus with 4 samples.

Results

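The genes of 8 transcription factors that define hepatocyte identity (Hnf4a, Foxa1, Foxa2, Foxa3, Cebpa, Cebpb, Onecut1 and Prox1) were described by the methylation of their CpG cytosines in mouse liver. A cytosine was taken when its chromosome, base and strand were listed with at least 10 reads in all 4 mice and it lay inside the RefSeq body of a listed gene on the mm10 build or within 5000 bases on either side. This gave 1352 cytosines in 1057 CpGs, of 1276684 cytosines measured in all 4 mice. The rule used position only, so no methylation value decided which cytosines were kept.

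Liver DNA from 2 mice of a Mixed background and 2 Black-6 mice, a label that stands for C57BL/6, was digested with MspI, which cuts at CCGG, and sequenced after bisulfite conversion (enhanced reduced representation bisulfite sequencing, ERRBS). All 4 were males aged 6 to 8 weeks on a normal diet and none was treated, and the tissue was total liver that had been frozen. The Mixed mice carried an undefined combination of C57BL/6J and other strains and came from another institution than the C57BL/6 mice, so differences of strain and of housing cannot be told apart. Each percentage below is the share of reads at a cytosine that were still read as C, which covers 5-methylcytosine and 5-hydroxymethylcytosine together. Depth went with strain as well, with 60654199 and 65176203 reads over listed cytosines for Mixed 1 and 2, against 99215153 and 91886997 for C57BL/6 1 and 2. Values for the 4 mice are given in the order Mixed 1, Mixed 2, C57BL/6 1 and C57BL/6 2, and the spread is the SD over these 4 mice. In a whole liver, a lower level in every cell and a smaller share of methylated cells cannot be told apart.

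These factors act as an interlocking network. HNF4A is a nuclear receptor that keeps the hepatocyte programme running, and its gene has an upstream promoter used in fetal liver and in parts of the gut and pancreas and a downstream promoter used in adult liver. The FOXA proteins are pioneer factors that open chromatin at liver genes, the C/EBP proteins are leucine zipper factors of metabolism and the acute phase, and ONECUT1 (also called HNF6) and PROX1 are homeodomain factors of liver development. Promoters rich in CpGs are mostly unmethylated in all tissues, whereas CpG-poor promoters and gene bodies are often methylated, and a CpG-poor promoter can lose methylation in the cells that use it.

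A promoter was taken as 1000 bases on each side of every RefSeq transcription start of the gene, with overlapping windows joined. The remaining cytosines between the gene's ends were called the gene body, and those outside it the flank. Promoter cytosines were almost free of methylation at 7 genes and partly methylated at Hnf4a, whereas gene bodies ran from nearly unmethylated (Cebpa and Cebpb) to mostly methylated (Hnf4a and Prox1). Over all 815 promoter cytosines the mean was 1.44%, 1.77%, 1.57% and 1.69% (1.61% ± 0.144, SD, n = 4). Over 284 gene body cytosines it was 18.2%, 19.5%, 18.0% and 18.9% (18.6% ± 0.679), and over 253 flank cytosines it was 12.2%, 11.6%, 11.3% and 11.01% (11.5% ± 0.518). Bodies were higher than promoters in every mouse, by 17.0 points ± 0.558 (exact two-sided sign-flip permutation test over the 4 mice, p = 0.125, the smallest p this design allows). By gene, the body stood above the promoter in 4 of 4 mice for 7 genes, from 0.132 points ± 0.0524 at Cebpa to 62.7 points ± 2.08 at Prox1. At Cebpb it did so in 2 of 4 mice, with a mean difference of 0.0205 points ± 0.194. Promoter and body levels at these C/EBP genes lay near the floor (0.129% and 0.261% at Cebpa, 0.421% and 0.441% at Cebpb). Their differences therefore rest on few methylated reads. Of the 1352 cytosines, 1194 (88.3%) averaged below 20%, the range called hypomethylated here, 128 (9.47%) lay between 20% and 80%, and 30 (2.22%) were above 80%.

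**Figure D1:**
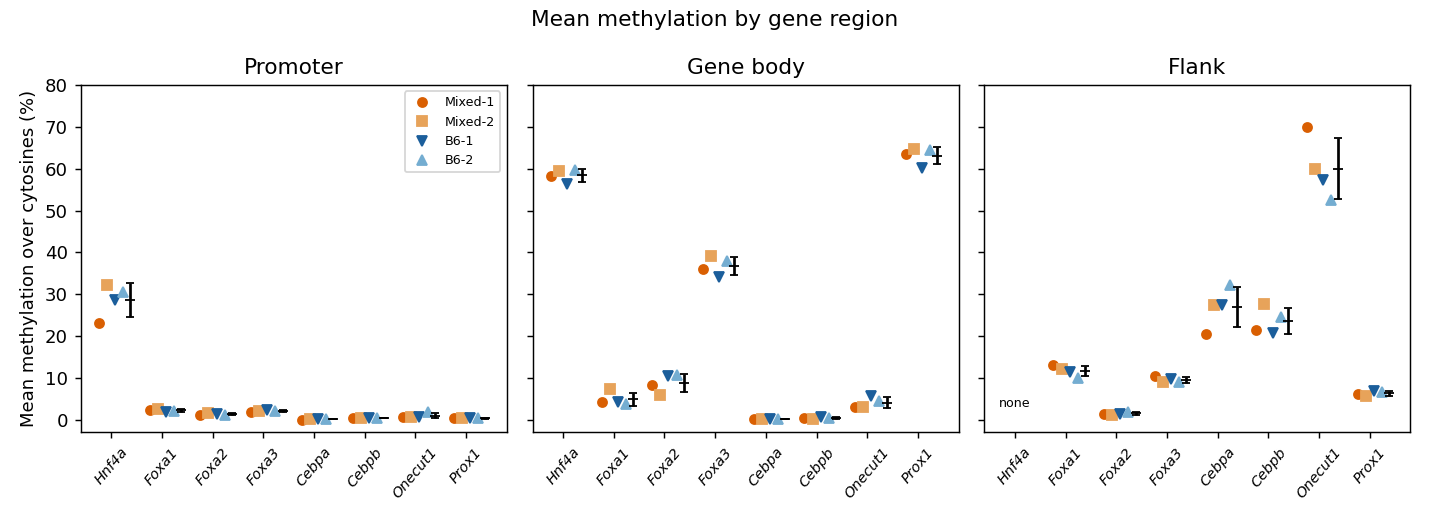
Mean methylation over common cytosines (vertical axis, percent) in the promoter, gene body and flank of each member, with 1 symbol for each mouse (B6 stands for C57BL/6 in all plots) and a bar for the mean ± SD of 4 mice. Hnf4a is the only member whose promoter mean (28.7%) lies above 20%, bodies range from 0.261% to 63.1%, and Hnf4a has no common cytosine in its flank.

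Hnf4a (gene ID 15378, chromosome 2, 163506811 to 163572907, forward strand) held 46 common cytosines. It was also the least covered member, with 37 of its 1037 reference CpGs (3.57%) measured in all mice. Both of its promoters were partly methylated in every mouse. The upstream promoter, whose first start lies at base 163506811, averaged 18.9%, 29.7%, 24.7% and 27.1% over 7 cytosines (25.1% ± 4.61). The downstream promoter, whose curated start lies at base 163547155, averaged 25.8%, 33.9%, 31.1% and 32.9% over 11 cytosines (30.9% ± 3.58). The downstream promoter was the higher in 4 of 4 mice, by 5.79 points ± 1.20 (exact sign-flip test, p = 0.125, the smallest possible). With only the 7 cytosines within 500 bases of the downstream start, its mean was 25.1%, 32.0%, 25.01% and 27.1%, so the 2 C57BL/6 mice then showed almost no difference between the promoters. The order over all 11 also depends on 1 of them, described below, at 58.3%, 83.3%, 100% and 100%. The other downstream cytosines had means of 17.3% to 32.6%. Without that cytosine the downstream promoter was the higher in Mixed mouse 1 only and the lower in every other mouse.

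The 250 bases before the first upstream start and before the curated downstream start of Hnf4a are shown because they are poor in CpGs and none of their CpGs was measured in all mice. All 18 promoter cytosines behind the values above lie downstream of these 2 starts, although 3 of the 7 upstream ones lie 40 to 45 bases before the curated upstream start (base 163506857). The upstream stretch (mm10, chr2:163506561-163506810, forward strand) holds 1 CpG and the downstream stretch (chr2:163546905-163547154, forward strand, intronic for the longer transcripts) holds 4. The Cebpb stretch before its start (chr2:167688665-167688914, forward strand) is set beside them because it holds 41 CpGs. Capitals mark CpGs measured in all 4 mice, here and in every sequence below, and all sequences were read from the mm10 reference.
Hnf4a upstream promoter: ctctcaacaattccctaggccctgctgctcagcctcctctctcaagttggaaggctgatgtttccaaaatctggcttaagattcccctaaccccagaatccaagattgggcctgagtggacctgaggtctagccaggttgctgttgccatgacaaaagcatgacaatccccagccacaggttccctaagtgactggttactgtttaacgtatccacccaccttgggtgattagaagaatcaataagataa
Hnf4a downstream promoter: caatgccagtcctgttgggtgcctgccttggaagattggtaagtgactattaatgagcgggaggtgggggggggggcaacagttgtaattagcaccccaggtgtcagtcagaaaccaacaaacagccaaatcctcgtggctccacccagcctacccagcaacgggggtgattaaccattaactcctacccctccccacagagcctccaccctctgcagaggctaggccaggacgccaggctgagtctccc
Cebpb promoter: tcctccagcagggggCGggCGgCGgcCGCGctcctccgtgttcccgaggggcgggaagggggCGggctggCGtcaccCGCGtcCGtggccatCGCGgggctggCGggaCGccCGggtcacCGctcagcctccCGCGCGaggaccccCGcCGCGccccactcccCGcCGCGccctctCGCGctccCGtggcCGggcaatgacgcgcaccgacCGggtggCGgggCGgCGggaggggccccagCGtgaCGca
The 39 cytosines measured in the Cebpb stretch averaged 0.134%, 0.156%, 0.0351% and 0.0817%.

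Along Hnf4a, methylation fell into blocks. In the first intron of the longer transcripts, 6 cytosines between 2945 and 7242 bases from the 5′ end were highly methylated, at 93.4%, 91.4%, 86.0% and 90.9% (90.4% ± 3.12). From 32078 to 34072 bases, ahead of the downstream start, 5 intronic cytosines stood at 13.1%, 17.7%, 21.4% and 24.4% (19.1% ± 4.90). Beyond the downstream promoter, from 43212 to 52784 bases, 6 intronic cytosines stood at 18.7%, 21.5%, 18.7% and 23.9% (20.7% ± 2.50). Methylation was high again between 58755 and 59394 bases, where 11 cytosines averaged 81.0%, 81.4%, 76.6% and 78.2% (79.3% ± 2.32). The low stretch around the downstream start therefore reached from 8266 bases before it to 12440 bases after it among the cytosines measured. No common cytosine lay between 7242 and 32078 bases. In the low block ahead of the downstream start, the cytosines at bases 163540800, 163540807 and 163540883 lie within 1000 bases of the start of another gene, Hnf4aos. In the high first-intron block, those from base 163513962 to 163514053 lie equally near the start of Gm25881. These blocks were drawn after the values were seen and carry no test. Sequences of an intronic block of the high class (chr2:163513960-163514055), of the first coding bases after the downstream start (chr2:163547305-163547331) and of a coding exon in the distal block (chr2:163566140-163566207), all on the forward strand, show the CpGs on which this contrast rests.
Hnf4a intronic block: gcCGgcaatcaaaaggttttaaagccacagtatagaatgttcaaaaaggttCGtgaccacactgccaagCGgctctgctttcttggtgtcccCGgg
Hnf4a coding start: atgCGactctctaaaacccttgcCGgc
Hnf4a distal exon: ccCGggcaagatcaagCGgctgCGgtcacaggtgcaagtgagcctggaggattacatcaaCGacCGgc
The 5 cytosines of the intronic block averaged 92.9%, 90.3%, 86.3% and 89.6%. The 3 cytosines at the coding start averaged 32.2%, 37.7%, 23.6% and 27.1%, and the 7 of the distal exon 82.2%, 86.7%, 75.5% and 81.0%. The coding start lay below both other blocks in every mouse. These stretches were picked to show the contrast between blocks, so this order is no test. The SD over mice was 2.75 points for the intronic block, 6.16 for the coding start and 4.59 for the distal exon.

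**Figure D2:**
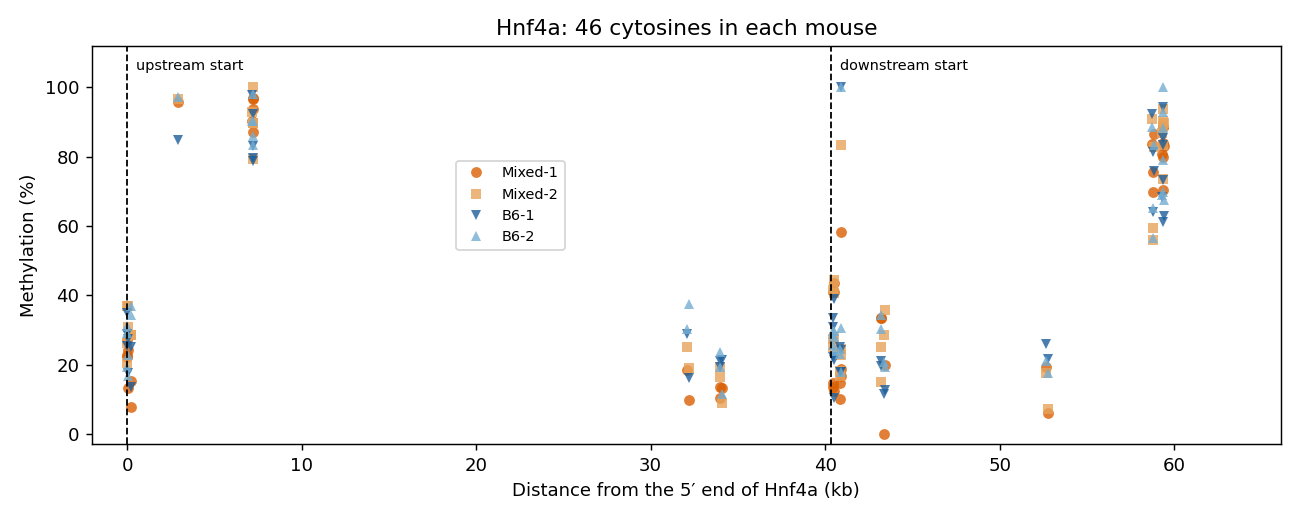
Methylation (vertical axis, percent) of the 46 common cytosines of Hnf4a against distance from its 5′ end (horizontal axis, kb), with 1 symbol shape for each mouse and dashed lines at the upstream start and the curated downstream start. Cytosines near both starts (25.1% and 30.9%) and in the introns around the downstream start (19.1% and 20.7%) are low, whereas the first intronic block (90.4%) and the distal block (79.3%) are high in all mice.

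A cytosine inside the downstream promoter broke this pattern. At base 163547696 on the forward strand, 541 bases after the downstream start and in an intron, the values were 58.3%, 83.3%, 100% and 100% from 12, 12, 11 and 20 reads. The cytosine opposite it on the reverse strand of the same CpG stood at 16.7%, 24.5%, 24.2% and 30.4%. Among 295 member CpGs measured on both strands, the strands differed by a median of 0.424 points, and this was the only CpG at which they were more than 25 points apart (61.5 points). It was singled out after its values were seen.

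The 3 Foxa genes had promoters with little methylation and differed in their bodies. Foxa1 (gene ID 15375, chromosome 12, 57540628 to 57548029, reverse strand) averaged 2.33%, 2.65%, 1.95% and 2.14% over 118 promoter cytosines (2.27% ± 0.300). Within 500 bases of its curated start, at base 57546111, 81 cytosines averaged 0.238% ± 0.0659, while 5 cytosines around a predicted start at the gene's far 5′ end (base 57548029) averaged 14.2%, 11.3%, 10.9% and 18.5%. Methylation was higher further upstream. The 13 cytosines 317 to 534 bases before the gene averaged 19.5%, 20.01%, 15.96% and 15.3%, and those 2586 to 2700 bases before it, at chr12:57550613-57550731 on the reverse strand, averaged 55.3%, 45.0%, 40.4% and 41.8% over 6 cytosines.
Foxa1 upstream block: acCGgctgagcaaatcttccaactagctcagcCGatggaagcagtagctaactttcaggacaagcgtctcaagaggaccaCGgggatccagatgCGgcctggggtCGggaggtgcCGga
The whole upstream flank of Foxa1 (14 cytosines) stood at 57.1%, 51.5%, 48.1% and 43.4%, both Mixed mice above both C57BL/6 mice. Its downstream flank was free of methylation (49 cytosines, 0.732% ± 0.243) over 2350 bases with no start of another RefSeq gene within 1000 bases. The body averaged 4.25%, 7.30%, 4.38% and 3.84% over 76 cytosines, and the part of it with the most methylation was the coding exon 5300 to 5709 bases from the 5′ end (6.37%, 11.2%, 5.10% and 5.06%), where Mixed mouse 2 was the highest.

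Foxa2 (gene ID 15376, chromosome 2, 148042877 to 148046969, reverse strand) was low throughout. Its 104 promoter cytosines averaged 1.22%, 1.70%, 1.43% and 1.27% (1.40% ± 0.216), and the windows of 500 bases around its 3 curated starts averaged 1.15%, 0.172% and 1.11%. Of the 190 cytosines in and around the gene, 187 were below 20%. The exceptions were a pair 520 and 562 bases before the gene (31.1% ± 2.97, from 27.5% to 33.8%) and a coding cytosine at 29.5%. The flanks averaged 1.49%, 1.17%, 1.48% and 1.98% over 75 cytosines, and 11 body cytosines, all in exons, averaged 8.36%, 5.87%, 10.4% and 10.7%.

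Foxa3 (gene ID 15377, chromosome 7, 19013283 to 19023539, reverse strand) had a promoter at 1.795%, 2.07%, 2.26% and 2.17% (100 cytosines) and a body at 36.1%, 39.2%, 34.1% and 37.8% (38 cytosines, 36.8% ± 2.19). Between 467 and 1169 bases into the gene, in the first intron, 13 cytosines had already reached 15.9% ± 1.66. Its last exon was divided. A middle part 8801 to 9098 bases from the 5′ end held 18 coding cytosines at 24.9%, 31.01%, 26.03% and 27.3%, whereas 4 cytosines on its 5′ side averaged 86.1%, 85.2%, 77.7% and 88.4% and 6 on its 3′ side 70.5%, 71.4%, 66.5% and 79.0%. The middle part was the lowest of the 3 in every mouse, but the parts were drawn after the values were seen, so this order is no test. The 3′ boundary is shown (chr7:19014322-19014524, reverse strand, coding exon), where methylation of single cytosines went from 24.7% to 96.3% within 203 bases.
Foxa3 exon boundary: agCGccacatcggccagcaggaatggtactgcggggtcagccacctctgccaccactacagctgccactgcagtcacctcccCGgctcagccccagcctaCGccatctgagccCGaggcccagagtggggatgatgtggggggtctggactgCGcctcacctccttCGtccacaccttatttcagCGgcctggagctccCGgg
Upstream of Foxa3, 35 flank cytosines within 1000 bases of the start of the neighbouring gene Sympk were unmethylated (0.301% ± 0.279). Downstream, an unmethylated stretch of 17 cytosines (0.708% ± 0.264) was followed, 13605 to 14974 bases from the 5′ end, by 11 cytosines at 58.7%, 49.7%, 52.9% and 50.1%.

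Cebpa and Cebpb, single-exon genes, had the least methylated bodies. At Cebpa (gene ID 12606, chromosome 7, 35119293 to 35121928, forward strand) 155 promoter cytosines averaged 0.0914%, 0.117%, 0.160% and 0.146%, and 31 body cytosines 0.297%, 0.226%, 0.289% and 0.231%. At Cebpb (gene ID 12608, chromosome 2, 167688915 to 167690432, forward strand) 188 promoter cytosines averaged 0.497%, 0.430%, 0.376% and 0.379%, and 29 body cytosines 0.437%, 0.234%, 0.633% and 0.460%. Both were bounded by partly methylated flanks. The Cebpa flank averaged 20.5%, 27.5%, 27.3% and 32.1% over 10 cytosines, and the Cebpb flank 21.5%, 27.6%, 20.8% and 24.6% over 13. The flank exceeded the promoter in 4 of 4 mice at both genes, by 26.7 points ± 4.78 and 23.2 points ± 3.12 (exact sign-flip test, p = 0.125 for each, the smallest possible).

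Onecut1 (gene ID 15379, chromosome 9, 74861921 to 74889648, forward strand) held the sharpest change near a start. Its 43 promoter cytosines averaged 0.724%, 0.726%, 0.713% and 1.82%, yet 12 cytosines 1086 to 1292 bases before the start averaged 72.6%, 62.7%, 59.9% and 53.9% (62.3% ± 7.82). Both Mixed mice stood above both C57BL/6 mice there in the block mean, which was not tested by itself. At the forward cytosines at bases 74860778, 74860810 and 74860812 the C57BL/6 mean was the higher, by 2.56, 2.69 and 8.93 points. At all others of the block the Mixed mean was the higher, some of them with as few as 11 reads in Mixed mouse 2. This stretch (chr9:74860627-74860837, forward strand) lies just outside the promoter window and in no RefSeq exon.
Onecut1 upstream block: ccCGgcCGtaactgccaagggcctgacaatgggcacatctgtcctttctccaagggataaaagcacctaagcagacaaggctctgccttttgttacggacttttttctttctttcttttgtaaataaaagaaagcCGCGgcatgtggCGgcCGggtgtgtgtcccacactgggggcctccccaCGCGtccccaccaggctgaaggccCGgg
In the body, 21 exonic cytosines 1002 to 1418 bases from the start were at 1.32% ± 0.700, and 25 cytosines 5901 to 6906 bases into the first intron were at 5.24%, 4.27%, 9.56% and 6.51%. No Onecut1 cytosine past that point was measured in all mice.

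Prox1 (gene ID 19130, chromosome 1, 190118035 to 190170827, reverse strand) combined an unmethylated promoter (89 cytosines at 0.374%, 0.345%, 0.402% and 0.554%) with the most methylated body (25 cytosines at 63.4%, 64.6%, 60.1% and 64.4%). The body was uneven. Exonic cytosines 8519 to 8615 bases from the 5′ end averaged 39.0% ± 2.48, the next 7, up to 20736 bases, averaged 90.7% ± 2.19, and 9 intronic cytosines 31447 to 31575 bases in averaged 45.0%, 46.2%, 40.3% and 45.0%. The upstream flank was unmethylated (15 cytosines, 1.04% ± 0.144) out to 4623 bases before the gene.

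**Figure D3:**
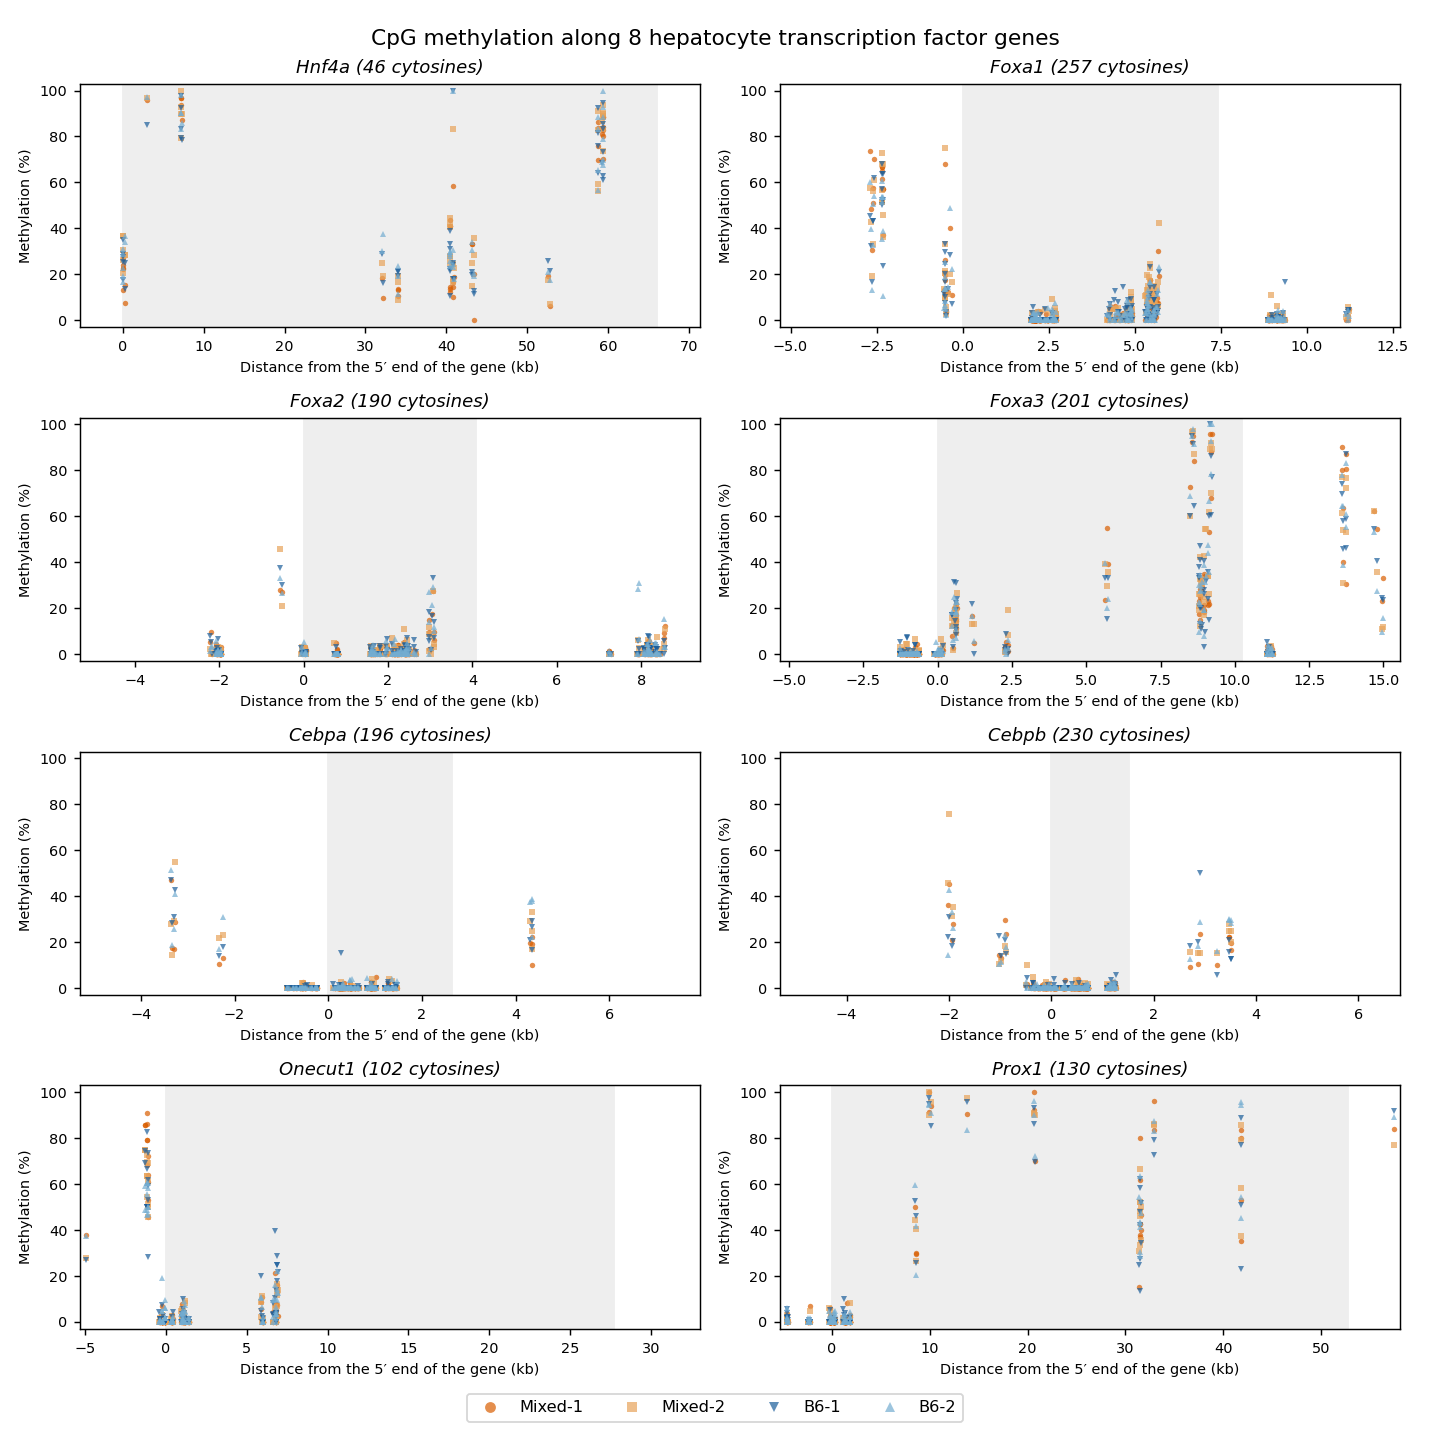
Methylation (vertical axis, percent) of every common cytosine of the 8 genes against distance from the 5′ end of the gene (horizontal axis, kb), with 1 symbol shape for each mouse and the gene body shaded in grey. Apart from Hnf4a and the far 5′ end of Foxa1, most points near a start lie close to 0, and partly methylated cytosines appear upstream of Foxa1 and Onecut1 (50.04% and 59.98% over their upstream flanks) and in the bodies of Foxa3 and Prox1.

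CpG content set the Hnf4a promoters apart from the rest. In the 2000 bases centred on each curated start, the RefSeq mm10 reference holds 34 CpGs at the upstream and 43 at the downstream promoter of Hnf4a, while the other 7 genes have between 92 and 231. Among 32851 RefSeq promoters the median was 38, so Hnf4a lies near the middle (46.1 and 53.2 percentile), and the others lie at the 77.4 percentile or above. Promoters with a CpG count within 5 of the upstream Hnf4a promoter had a median methylation of 52.7% (quartiles 8.30% and 80.5%, 814 promoters), against its 25.1%. For the downstream promoter they had a median of 12.1% (quartiles 1.18% and 64.8%, 906 promoters), against its 30.9%. Both Hnf4a promoters therefore fell between the quartiles of promoters with a like CpG count. The windows around the 10 curated starts of the other members, at 0.129% to 2.15%, compare with medians of 0.150% to 0.232% for promoters with like counts. Of these 10, 5 lay above the upper quartile of promoters with a like count and none (0) below the lower. They were the starts of Cebpb (0.421%, upper quartile 0.358%), Foxa3 (2.07%, 0.735%) and Onecut1 (0.995%, 0.570%) and 2 of the 3 Foxa2 starts (0.790% and 2.15%, upper quartiles 0.539% and 0.967%). Cytosines near a CCGG site are those the assay reaches, and this motif reads the same on both strands. It occurs in 84.8% of the RefSeq promoter windows of 2000 bases and in 52.8% of the promoter stretches of 300 bases. Of 1303 reference CpGs in the member promoters 620 (47.6%) were measured, against 10.1% in bodies and 14.5% in flanks, so body and flank means describe the measured CpGs and not all CpGs there.

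**Figure D4:**
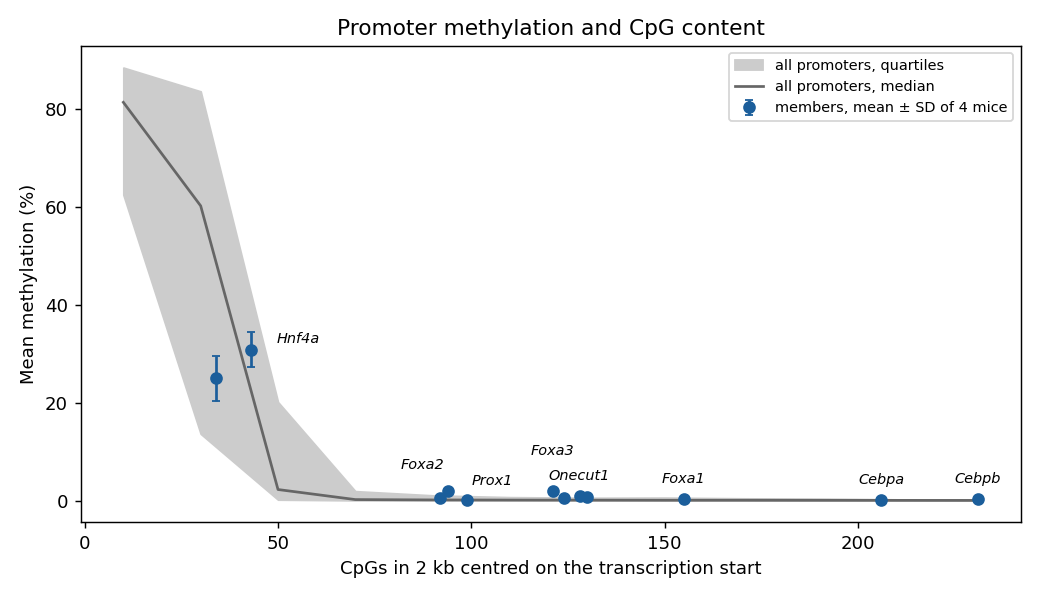
Mean methylation (vertical axis, percent) against the number of CpGs in the 2000 bases around the start (horizontal axis), with the median and quartiles of all promoters in bins of 20 CpGs (grey) and each curated member start as the mean ± SD of 4 mice (points). The 2 Hnf4a promoters lie at 34 and 43 CpGs within the grey band, and the other 10 curated starts lie at 2.15% or below.

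Set against all protein-coding genes with at least 5 common cytosines in the region, member promoters were mostly below 20%, as were those of most genes, and member bodies were lower than most. Promoters below 20% were 7 of 8 among the members and 91.6% of 13713 genes, and the median was 1.20% for the members and 0.383% for all, with members from the 20.9 (Cebpa) to the 93.3 (Hnf4a) percentile. Bodies below 20% were 5 of 8 among the members and 9.26% of 10339 genes, and the medians were 6.88% and 79.2%. Flanks below 20% were 4 of 7 among the members and 42.4% of 6694 genes, and the medians were 11.7% and 34.99%. These are descriptions of 8 genes with no test. The member bodies below 20% were those of Cebpa, Cebpb, Foxa1, Foxa2 and Onecut1. The first 4 of these genes are only 2636, 1518, 7402 and 4093 bases long. In Onecut1, 27728 bases long, the measured body cytosines ended 6906 bases from the start. The comparison with all genes was not matched for gene length or for distance from the start. Of 18 listed genes of the same families, 17 had a promoter below 20% (median 1.30%), and the exception was Cebpe, a C/EBP gene of the granulocyte lineage, at 87.1%, 89.0%, 89.0% and 88.5%. Of 14 measured bodies of these relatives, 11 were below 20% (median 4.68%). Of 17 other liver-enriched regulators, all 12 with a measured promoter were below 20%, from 0.0824% at Atf5 to 7.98% at Gata4, while 9 of 12 measured bodies lay between 20% and 80%, against 42.7% of all 10339. No promoter, body or flank in either list passed the strain test described next.

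The gene most alike each member was taken as the other gene with the smallest Euclidean distance over 12 values (promoter, body and flank in 4 mice), among 4063 genes with at least 5 cytosines in all 3 regions. It was Cdk5r2 for Foxa1 (distance 4.59 points), Lhx8 for Foxa2 (4.84), Chrm4 for Foxa3 (6.60), Kank3 for Cebpa (9.46), Mir22hg for Cebpb (5.58), LOC115486128 for Onecut1 (11.996) and Cuedc2 for Prox1 (5.37). Hnf4a could not be compared, having no flank cytosine.

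Methylation of liver cell type markers was looked up to set the label of total liver beside the data, although methylation does not measure expression. Of 10 hepatocyte markers only Fgb, a fibrinogen chain, had 5 or more promoter cytosines (33.5%, 22.3%, 28.4% and 35.6%). Of 4 cholangiocyte markers, Epcam, Krt19 and Sox9 had promoters below 20% and Krt7 stood at 27.7% ± 2.67. Stellate cell markers were measured at 3 of 3 promoters (3.60% to 22.8%), and no promoter of the 5 leukocyte and 3 endothelial markers was. The label could thus be neither supported nor contradicted from these promoters.

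The 2 groups were set side by side to ask whether mouse background or housing changes liver methylation. At the members, no cytosine passed the test for a strain difference, which was a logistic model per cytosine over the 4 mice, moderated with limma and adjusted over all 1276684 cytosines, with an adjusted p below 0.01 and at least 25 points between the strain means. In all, 84 cytosines (0.00658%) passed it. At an unadjusted p below 0.05 there were 18 member cytosines (1.33%), against 2.07% of all cytosines, and the lowest adjusted p of a member was 0.687. Of these 18, 13 were lower in C57BL/6 (0.962% of the members, against 1.13% of all cytosines). At an adjusted p below 0.05 by the logistic model, with no minimum difference, there were 0 member cytosines, against 0.0327% of all. By the edgeR quasi-likelihood test 0 member cytosines passed (0.0103% of all) and 13 (0.962%, against 1.23% of all) had an unadjusted p below 0.05. By the edgeR likelihood ratio test, chosen after seeing the data, 0 passed as well (0.0349% of all) and 51 (3.77%, against 4.62% of all) had an unadjusted p below 0.05. Fisher's exact test on reads pooled within a strain, which takes reads and not mice as the unit, passed 1 member cytosine, against 0.124% of all. The strains did not overlap at 183 member cytosines (13.5%, against 16.6% of all). Of the members, 94 (6.95%, against 8.95% of all) had both C57BL/6 mice below both Mixed mice. The share without overlap ran from 1.53% at Cebpa to 50% at Hnf4a. By region it was 6.26% in promoters, 29.6% in bodies and 19.0% in flanks. The logistic model gave an unadjusted p below 0.05 at 0.368%, 3.52% and 1.98% of these. A cytosine unmethylated in every mouse cannot separate the strains, and no comparison with all cytosines was matched for methylation level.

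The cytosine that passed Fisher's test was also the member cytosine with the widest gap. It lies at base 57548534 of chromosome 12 on the reverse strand, 505 bases before the 5′ end of Foxa1. In the Mixed mice 15 of 22 reads (68.2%, 95% Wilson interval 47.3% to 83.6%) and 12 of 16 reads (50.5% to 89.8%) were methylated. In the C57BL/6 mice it was 19 of 64 reads (29.7%, 19.9% to 41.8%) and 8 of 58 reads (13.8%, 7.16% to 24.9%). The gap was 49.9 points and the strains did not overlap, but the adjusted p of the logistic model with limma was 0.687. The tests differed at this cytosine. Its adjusted p was 0.0485 by the edgeR likelihood ratio test, by which it did not pass, and 4.39e-05 by Fisher's test. By the edgeR quasi-likelihood test it did not pass either. The intervals cover counting error only. The widest gap at each of the other genes was 11.6 points at Cebpa, 15.4 at Foxa2, 23.8 at Cebpb, 24.3 at Onecut1, 24.5 at Foxa3, 28.7 at Prox1 and 29.2 at Hnf4a, the last at the forward cytosine of the CpG whose strands differed. The Mixed mean was the higher at Cebpb, Foxa1, Foxa3, Onecut1 and Prox1, and the C57BL/6 mean at Cebpa, Foxa2 and Hnf4a. At the Cebpa and Foxa2 cytosines the strains overlapped. The Foxa2 gap came from 4 of 13 reads in C57BL/6 mouse 2, with 0% in each other mouse.

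**Figure D5:**
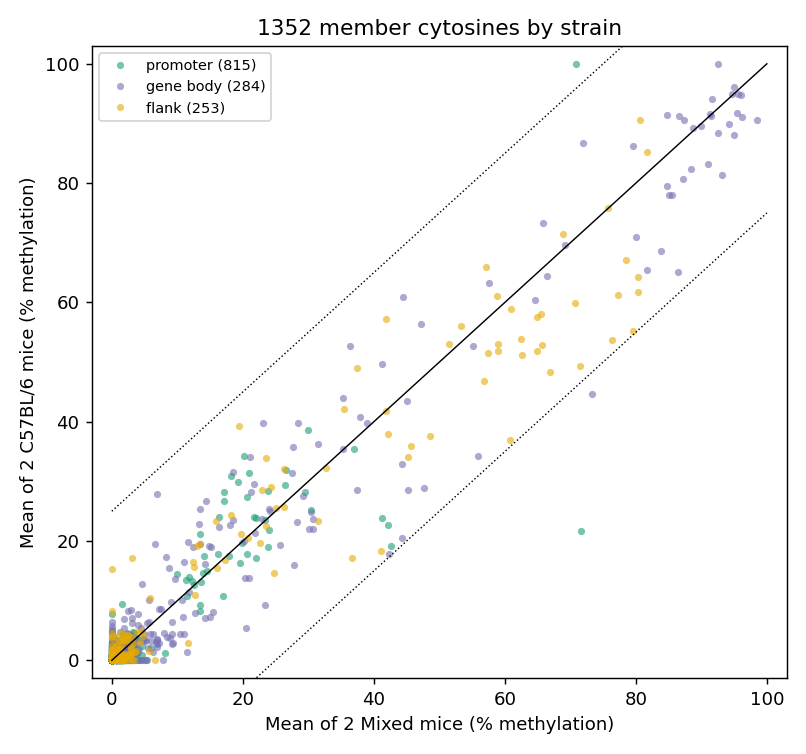
Mean methylation of the 2 C57BL/6 mice (vertical axis, percent) against that of the 2 Mixed mice (horizontal axis, percent) for the 1352 member cytosines, coloured by region, with the line of equality and dotted lines 25 points away. Only 3 cytosines lie beyond the dotted lines, and the farthest, in the Foxa1 promoter window, is 49.9 points lower in C57BL/6.

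Region means were compared between strains with limma on the mean percentage of each region, adjusted over all genes with at least 5 cytosines. None of the 23 member regions passed at an adjusted p below 0.05 (lowest 0.673), and neither did any of 17290 promoters, 13505 bodies and 11385 flanks of all genes (0% each). Unadjusted p-values were below 0.05 for 3 member regions of 23, where 5.58% of promoters, 7.22% of bodies and 7.22% of flanks of all genes were. The Onecut1 body was higher in C57BL/6 by 2.13 points (SE 0.517, limma adjusted p = 0.673), from 3.02%, 3.01%, 5.798% and 4.49%. The Foxa2 body was higher by 3.41 points (SE 0.908, limma adjusted p = 0.673), with values given above, or by 2.17 points without Mixed mouse 2 and 4.65 without Mixed mouse 1. The Prox1 flank was higher by 0.820 points (SE 0.278, limma adjusted p = 0.678), from 6.11%, 5.72%, 6.89% and 6.58%. Most of this came from its single downstream cytosine, at 84.2%, 76.9%, 91.7% and 89.5% from 19, 13, 72 and 76 reads. The 15 upstream cytosines stood at 0.898%, 0.975%, 1.23% and 1.06%. The widest difference in points was at the Onecut1 flank, 69.95%, 59.97%, 57.4% and 52.6%, a difference of -9.97 points (SE 4.26, limma adjusted p = 0.729). Over all members, C57BL/6 minus Mixed was 0.0289 points for promoters (exact permutation p = 1), -0.397 for bodies (exact p = 0.667) and -0.759 for flanks (exact p = 0.333, the smallest that 2 against 2 mice allow). Within a background the labels tell the mice apart by number only. The exact tests rest on these 4 animals alone. The logistic model, limma and edgeR also borrow spread from other cytosines or regions, and Fisher's test takes reads as the unit.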

How the data were processed

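Methylation calls from ERRBS libraries of 4 livers were used. The authors deposited, for each mouse, the coverage (read count) of each CpG cytosine with at least 10 reads and the percent of reads read as C and as T. The study's methods name BSMAP, whereas the submitters' processing notes name Bismark and SAMtools with the mm10 build, and which of them made the deposited files is not settled here. Coverage times percent gave whole methylated reads at 99.9985% to 99.9993% of cytosines (within 0.05 reads). At 0.507% to 0.841% of common cytosines some reads were neither C nor T, and tests used C and T reads.

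Cytosines present in all 4 mice were assigned to RefSeq genes, with promoters 1000 bases and flanks 5000 bases wide on each side. A region mean is the unweighted mean over cytosines. Strain tests were a quasi-binomial logistic model per cytosine moderated with limma 3.58.1 (prior spread taken from cytosines of intermediate methylation), limma with trend on region means with at least 5 cytosines, edgeR 4.0.16 and Fisher's exact test, all with Benjamini-Hochberg adjustment (R 4.3.3, Python 3.11.15, scipy 1.17.1). On simulated data for 100000 cytosines with 200 changed by 50 points, the logistic model recovered 72%, Fisher's test 90%, the edgeR quasi-likelihood test 4% and the edgeR likelihood ratio test 74%. On simulated promoter means with 200 of 17290 changed by 20 points, limma recovered 96%, with 6 false calls. These simulated means held counting noise only and no spread between mice, so the 96% does not give the power of the region test in real mice.

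Members, family relatives, other liver regulators and markers were lists chosen with earlier results of these data known. Named besides them were the gene most alike each member, the cytosine with the widest strain gap in each member, and runs of at least 5 consecutive cytosines above 50% in a promoter window (there were 0) or below 20% outside one. Alternatives covered coverage minimum and ceiling, strands, pooling, window widths, transcript choice, gene weighting, the replicate block and each mouse left out.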

Additional observations from a re-analysis of the deposited data

Results flagged for a closer look

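Cytosines of the member genes that were not listed in all 4 mice carried methylation too. Mixed mouse 1 had 38 such cytosines with a mean of 20.7%, Mixed mouse 2 had 49 with 28.1%, C57BL/6 mouse 1 had 158 with 20.9% and C57BL/6 mouse 2 had 154 with 19.0%, each far above the share that a count of 0 would allow (0.0635% to 0.541% of their reads). They are sites that the comparisons above do not use, and more of them came from the deeper C57BL/6 libraries.

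The difference between gene body and promoter at Cebpb had opposite signs in the strains. It was -0.0600 and -0.196 points in the Mixed mice and 0.257 and 0.0812 points in the C57BL/6 mice, so the strains differed by 0.297 points. This difference was not tested, and all levels involved are below 0.7%.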

How the results depend on the processing

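Bodies exceeded promoters under all 15 alternatives, by 10.3 to 24.5 points. No alternative for the region test gave a member region that passed (0 of 8 alternatives). Member cytosines that passed were 0 under every alternative except Fisher's exact test, which gave 1. The edgeR likelihood ratio test, added after seeing the data, gave 0. The levels moved with the cytosines used. Promoter means were 1.40% with at least 20 reads, 1.36% with reads pooled, 1.23% and 2.43% with windows of 500 and 2000 bases, 1.35% with curated transcripts and 4.55% with each gene weighing the same. Body means were 21.1% with all sites of each mouse, 15.5% pooled, 11.6% and 27.0% with the narrower and wider windows, and 22.1% by gene. Flank means were 8.70% with at least 20 reads, 12.5% with strands merged, 12.3% with all sites, 8.64% pooled, 9.14% and 10.8% with the 2 windows, 8.44% with flanks of 2000 bases, 13.4% without sites near another start and 19.9% by gene. The strain difference (C57BL/6 minus Mixed) became 2.23 points for bodies with all sites, 0.558 pooled and -0.177 with the wide window for flanks, and 0.282 by gene for promoters. It took the other sign in 4 of 15 alternatives for promoters, 3 for bodies and 1 for flanks. The causes were not tested. Leaving out each mouse gave promoter means of 1.56% to 1.67%, body means of 18.4% to 18.8%, flank means of 11.3% to 11.7% and a promoter strain difference of -0.136 to 0.194 points. Over the whole series, leaving out a Mixed mouse changed the 84 cytosines that passed to 291 or 272, and leaving out a C57BL/6 mouse to 0. Same-numbered mice share only a number (correlation of deviations from the strain means 0.000363 over 148813 cytosines of 20% to 80% and 0.168 over the 1352 member cytosines). The replicate block gave 0 member cytosines and 0 member regions that passed, and 246 cytosines in the whole series. A count of 0 allows a level of up to 30% at a cytosine with only 10 reads, and the median coverage of the member cytosines was 56 reads.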
